A study of Mus musculus with 2 samples.

Results

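Thsd7a is a mouse gene of 437801 bp on the minus strand of chromosome 6, from 12311610 to 12749410 in mm10. It was chosen by its number of YTHDF2 peaks: 45 of the 9271 peaks in the authors' list overlapped the gene body by at least 1 bp, and the authors' gene table held 1 row for it. That number, and every score of these peaks, is therefore a description and was not tested. The peaks came from RNA immunoprecipitation (RIP) of C2C12 myotubes, in which RNA bound to YTHDF2 is recovered with an antibody and sequenced beside the input. Analysed here were 1 library of YTHDF2 RIP and 1 of input. Both were wild-type C2C12, a mouse myoblast line fused into myotubes in 2% horse serum over 4 to 5 days, with no further treatment and batch label 1. An IgG control that the design text names was not analysed here. With no replicates, differences between the libraries have no measured spread, and the intervals given cover counting error only.

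Thsd7a encodes a large transmembrane glycoprotein built from many thrombospondin type 1 repeats. It is best known on vascular endothelial cells, where work in human cells and zebrafish tied it to migration and vessel growth, and on kidney podocytes, where human autoantibodies to it occur in membranous nephropathy. YTHDF2 is a mainly cytoplasmic reader of N6-methyladenosine (m6A), which recruits the deadenylation machinery to bound mRNA. The m6A consensus is written DRACH, in which D stands for any base but C, R for a purine and H for any base but G. Introns are removed from mRNA precursors in the nucleus.

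Peaks are numbered here from the annotated gene start. The sequences below are GRCm38 bases on the strand of Thsd7a, around the summits of the peaks that the results turn on, with every DRACH match in capitals and T written for U. Peaks 20 and 37 had high fold enrichments, and the search described below found no close copy of them elsewhere in the genome. Of the bases of peak 20, however, 78.0% are marked as repeats. Peak 1 had the smallest q-value and peak 3 the most RIP fragments. Peaks 9, 30 and 33 also show repeated or purine-rich sequence. The last line is the DRACH match nearest to the summit of peak 45, the only peak in an exon, at a distance of 48 bp.
Peak 20, chr6:12670308-12670428, minus strand: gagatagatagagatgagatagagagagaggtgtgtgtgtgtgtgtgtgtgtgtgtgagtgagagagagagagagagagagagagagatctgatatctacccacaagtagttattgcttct
Peak 37, chr6:12448923-12449043, minus strand: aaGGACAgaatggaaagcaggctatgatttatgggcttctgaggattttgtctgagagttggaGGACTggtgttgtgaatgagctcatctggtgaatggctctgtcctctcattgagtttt
Peak 1, chr6:12745733-12745853, minus strand: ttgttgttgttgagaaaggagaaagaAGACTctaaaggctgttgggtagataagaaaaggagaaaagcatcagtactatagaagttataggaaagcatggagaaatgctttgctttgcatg
Peak 3, chr6:12739984-12740104, minus strand: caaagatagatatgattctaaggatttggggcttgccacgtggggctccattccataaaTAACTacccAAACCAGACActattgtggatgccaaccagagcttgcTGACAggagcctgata
Peak 9, chr6:12711532-12711592, minus strand: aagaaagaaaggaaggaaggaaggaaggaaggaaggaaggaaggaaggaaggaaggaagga
Peak 30, chr6:12566986-12567046, minus strand: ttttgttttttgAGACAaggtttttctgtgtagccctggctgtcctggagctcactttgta
Peak 33, chr6:12497615-12497675, minus strand: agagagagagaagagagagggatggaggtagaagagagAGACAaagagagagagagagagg
Peak 45, chr6:12314981-12315009, minus strand: attgatattctgAAACTgtaatagtacac

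Almost all peaks over Thsd7a lay in introns. Of the 45 peaks, 44 touched no exon of any annotated Thsd7a transcript, 97.8% (Wilson 95% interval 88.4 to 99.6), and 1 lay in the last exon. Such a share is usual for genes with many peaks: its median among the 138 genes with at least 10 peaks was 92.9%. The 28 exons of the longest coding transcript make up 2.51% of the bases of the gene body, and 2.22% of the peaks touched an exon. A peak touching an exon by 1 bp counts as exonic, so these shares are not measured alike. With 1 such peak they cannot be set apart. No peak touched coding sequence, the start codon or the stop codon. The count of 45 was the second highest among 21951 protein-coding genes, of which 15.0% had at least 1 peak over the body and 0.629% had at least 10. In a lysate of many cells, fewer cells with a transcript and less of it per cell cannot be told apart.

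Peak 45, in exon 28, was the only row that the authors' gene table gave for Thsd7a, and it marked the 3' UTR alone. It lay on chromosome 6 from 12314813 to 12315046, with its summit 2.42 kb past the stop codon and 3.34 kb before the transcript end, in a 3' UTR of 5757 bp. At the summit it had 73 RIP fragments, against an input background of 17.7. The fold enrichment, the authors' ratio of RIP pileup to input background with 1 added to each, was 3.57 (95% counting interval 2.81 to 4.47). RIP fragments were read from the pileup, whose values were whole multiples of 0.9, and the interval is an exact Poisson interval of those fragments with the background held fixed. By this 1 peak Thsd7a is among the 5.75% of protein-coding genes in the authors' gene table, while its 44 intron peaks are outside that table.

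The gene's 5' part was the densest. Peaks began 3.62 kb from the gene start, and 16 of the 45 lay in the first 50 kb, which is 11.4% of the body. That is 32.0 peaks per 100 kb, against 7.48 per 100 kb in the rest of the gene. All 16 were in intron 1, which spans 193070 bp from 12555727 to 12748796, is 44.1% of the body and held 30 peaks. The other 14 peaks of intron 1 stood at 9.74 per 100 kb, against 6.13 per 100 kb for the 15 peaks outside intron 1. The 50 kb boundary was set after the values were seen. Peak 17, at 50.3 kb, lies just beyond it, and a stretch of 15.2 kb without a peak follows.

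**Figure D1:**
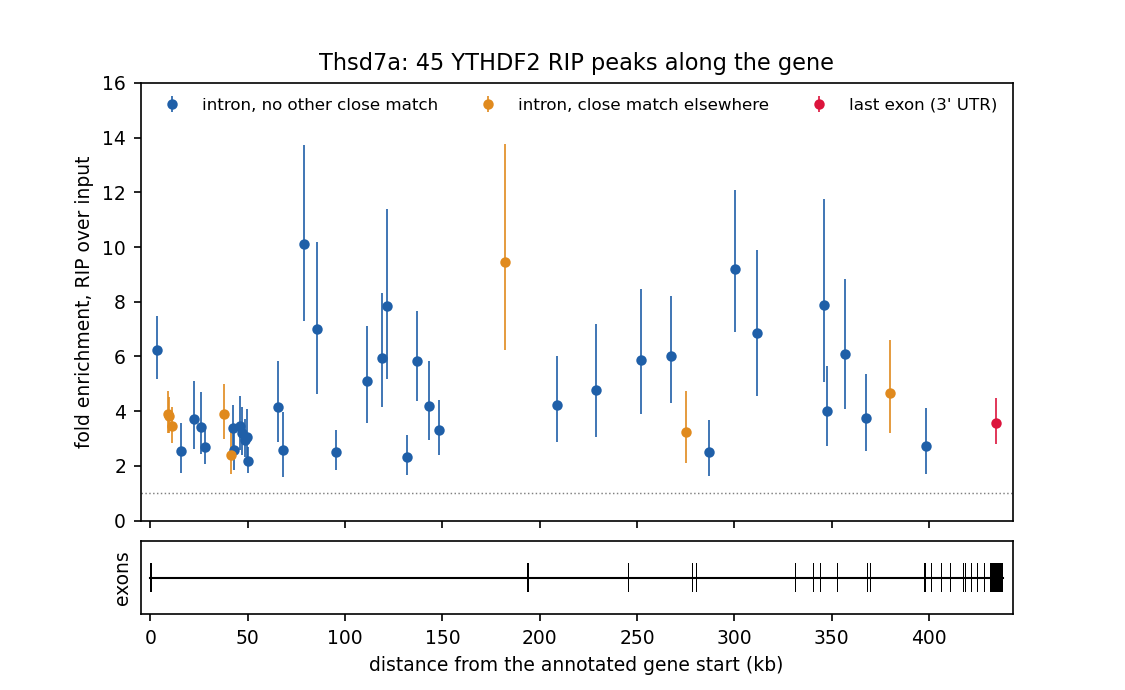
Fold enrichment of RIP over input (y axis) for each of the 45 peaks by distance of its summit from the gene start in kb (x axis), with 95% counting intervals. Exons are drawn below, short ones widened to stay visible. Blue points are intron peaks, orange ones intron peaks with a close match elsewhere in the genome, and the red one is in the 3' UTR; the dotted line is a fold of 1. Peaks crowd the first 50 kb at folds mostly under 4, and the highest folds lie further along the gene.

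Downstream of intron 1 the peaks were fewer and spread over long and short introns. Of the 27 introns 8 held a peak, and the longest without a peak, intron 7, measured 9207 bp. Intron 2 (50730 bp) had 2 peaks, intron 4 (29789 bp) had 3 and intron 6 (50349 bp) had 3. Intron 9 (7137 bp) and intron 11 (15140 bp) had 2 each, and intron 13 (27229 bp) and intron 15 (3281 bp) had 1 each. Over the whole gene, neighbouring summits lay a median of 7.22 kb apart (range 0.456 to 36.1 kb). The median was 2.06 kb within the first 50 kb and 10.9 kb beyond it. The widest stretch without a peak, 36.1 kb, lay between peak 44 in intron 15 and peak 45, where the introns are short. Stretches nearly as wide lay between peaks 38 and 39 (34.3 kb) and between peaks 29 and 30 inside intron 1, the longest intron (34.0 kb).

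Peaks stopped at the ends of the gene. The last member before the gene start, peak 1, lay 3.62 kb inside it, and the nearest peak outside was 323 kb upstream. That outside peak, with 33 RIP fragments against a background of 4.00 and a fold enrichment of 6.14, lay in an intron of Tmem106b, which encodes a lysosomal membrane protein. At the other end peak 45 lay 3.34 kb inside the transcript end, and the nearest peak outside was 263 kb away. It had 20 RIP fragments against a background of 2.00 and a fold enrichment of 6.33, in an intron of Phf14, a gene for a chromatin protein with PHD fingers. Tmem106b and Phf14, the nearest protein-coding genes on either side, held 2 and 8 peaks. These are all the peaks in windows of 437801 bp next to the body, 2 upstream and 8 downstream.

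RIP fragments and input background at the peaks were both higher by median in the first 50 kb than beyond it. In the first 50 kb the RIP fragments per summit ranged from 30 to 139 with a median of 55, and the input background ranged from 8 to 32 with a median of 13.5. Beyond it the RIP fragments ranged from 19 to 83 with a median of 30, and the background from 1.49 to 34.0 with a median of 5.39. The ranges overlap, but all 16 backgrounds of the first 50 kb were at least 8. With peak 17 included, all 17 peaks up to 50.3 kb were at or above that value, and 5 of the 28 later peaks were. RIP fragments were thus 1.83 times and background 2.50 times as high by median near the start.

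**Figure D2:**
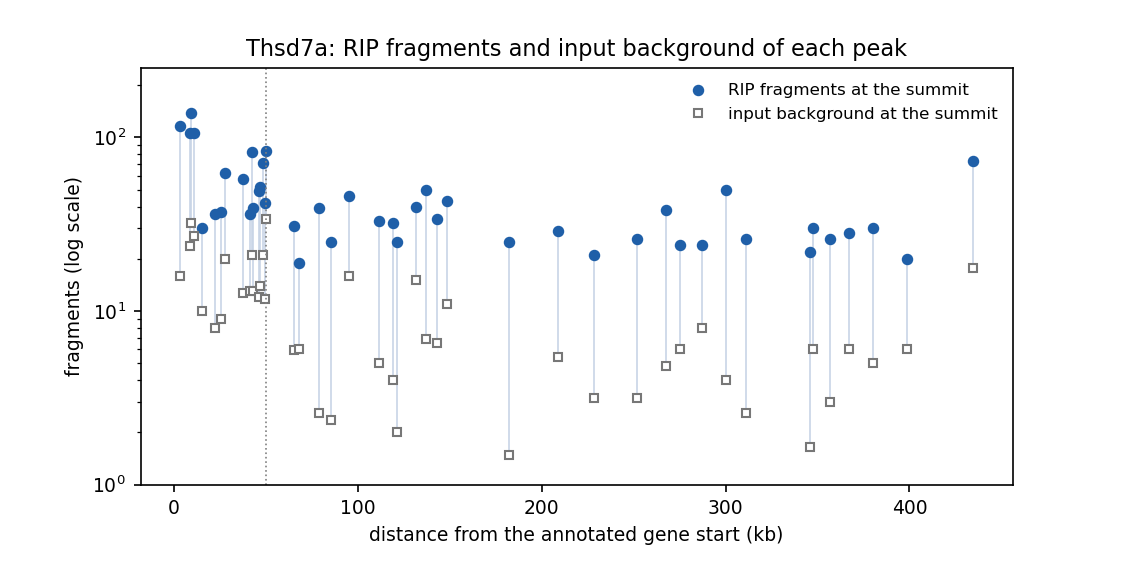
RIP fragments (filled circles) and input background (open squares) at the summit of each of the 45 Thsd7a peaks on a log axis, by distance from the gene start in kb. The dotted line marks 50 kb. The highest circles and squares lie from the start to peak 17, just past the line, though some points there are lower than some later ones. Both stand high again at peak 45, the peak in the 3' UTR.

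Across the 45 peaks, Spearman's correlation with distance from the start was -0.59 for RIP fragments and -0.60 for the background. The peaks share both libraries and 1 gene, so these values describe the layout only. The fold enrichment ran the other way, with a correlation of 0.31. Its median was 3.42 (range 2.39 to 6.25) in the first 50 kb and 4.67 (2.16 to 10.1) beyond it. Folds of at least 4 were reached by 1 of the 16 early peaks and by 19 of the other 29. Over the gene that made 20 of 45 peaks, 44.4%, against 59.6% of all peaks in the list.

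Peak 1 is the early peak that passed 4. It lay in intron 1 on chromosome 6 from 12745631 to 12745990, and had 117 RIP fragments against an input background of 16. Its fold enrichment was 6.25 (5.18 to 7.48) and its −log10 q of 42.8 was the highest of the gene. Where the background is a whole number it can be read as input fragments, and counting error of both libraries can be given: the scaled ratio of RIP to input fragments at peak 1 was 6.58 (95% Clopper-Pearson interval 3.89 to 11.9). The interval over both libraries is far wider than the one that holds the background fixed. With RIP fragments scaled by 0.9, as the pileup was, such a ratio could be given for 28 of the 45 peaks and ranged from 2.20 to 11.2. The list holds only peaks that the caller found higher in the RIP, so ratios above 1 are set by that choice.

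The next peaks along the gene held as many fragments at lower folds. Peak 3, at 9.37 kb, had 139 RIP fragments against a background of 32.0, a fold of 3.82 (3.22 to 4.51). Peaks 2 and 4, at 8.91 and 10.9 kb, had 106 RIP fragments each against backgrounds of 23.6 and 27.0, with folds of 3.92 (3.21 to 4.73) and 3.44 (2.83 to 4.16). With the background held fixed, these intervals overlap one another and lie below that of peak 1. With counting error of both libraries the ratios were 3.91 (2.65 to 5.94) at peak 3 and 3.53 (2.30 to 5.61) at peak 4, which overlap the interval of peak 1, so the difference was not resolved. Peaks 1 to 4 are the only members with over 100 fragments. Peaks 2, 3 and 4 also have close copies elsewhere in the genome, whose part in these counts was not tested.

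The highest folds stood on low input backgrounds further along the gene. Peak 20, in intron 1 at 79.0 kb, had 39 RIP fragments against a background of 2.57 and a fold of 10.1 (7.28 to 13.7). Peak 30, at 182 kb, had 25 against 1.49, a fold of 9.45 (6.25 to 13.8). Peak 37, in intron 6 at 300 kb, had 50 against 4.00, a fold of 9.20 (6.88 to 12.1). Their intervals overlap, so their order was not resolved at this depth. With counting error of both libraries, the ratio at peak 37 was 11.2 with an interval of 4.13 to 42.9, and peaks 20 and 30 have no whole background to give one.

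The other intron peaks among the 10 of highest fold lay along the whole gene. Peak 39 in intron 9 stood at 7.89 (5.09 to 11.7) and peak 25 in intron 1 at 7.83 (5.19 to 11.4). Peak 21 in intron 1 stood at 6.99 (4.63 to 10.2) and peak 38 in intron 6 at 6.84 (4.57 to 9.89). Peak 1, described above, came next, ahead of peak 41 in intron 11 at 6.10 (4.07 to 8.82) and peak 34 in intron 4 at 6.03 (4.32 to 8.21). All of them but peak 1 lay over 50 kb from the gene start. At the lower end, peak 17 had 83 RIP fragments against the highest background of the gene, 34.0, and a fold of 2.16 (1.73 to 2.67). Peak 26 stood at 2.31 (1.67 to 3.13) and peak 10 at 2.39 (1.69 to 3.28).

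The fold that a peak could have in the list depended on its background: among all other peaks the lowest fold was 3.14 under a background of 4 and 1.65 from 16 to under 40. Spearman's correlation between the background and the fold was -0.72 over the 45 Thsd7a peaks and -0.77 over all 9271. Set at like background, Thsd7a peaks lay within the spread of other peaks in the middle classes. From 4 to under 8 their median fold was 4.22 (14 peaks), against 4.37 (quartiles 3.73 and 5.13) for 2539 other peaks. From 8 to under 16 it was 3.12 (12 peaks), against 3.48 (2.93 and 4.15) for 1764. Under a background of 4 it was 6.99 (9 peaks), above the upper quartile of the 3535 others, whose median was 5.67 (4.83 and 6.77). From 16 to under 40 it was 3.42 (10 peaks), against 2.77 (2.36 and 3.33) for 1016. These classes were set after the values were seen, and 9 to 14 peaks of 1 gene cannot resolve such differences.

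**Figure D3:**
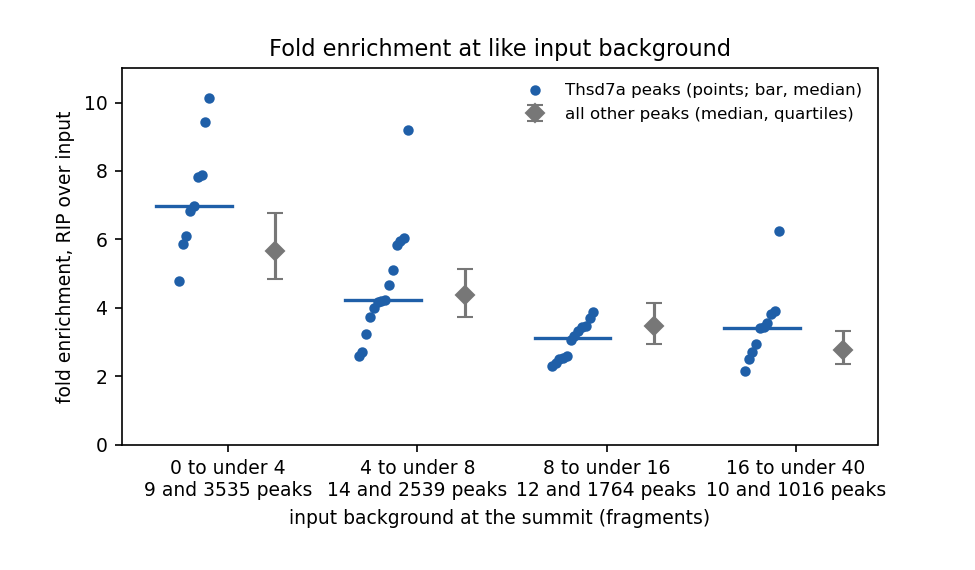
Fold enrichment by class of input background at the summit. In each class the points to the left are Thsd7a peaks with their median as a bar, and the diamond to the right is the median of all other peaks with its quartiles. In the outer 2 classes the Thsd7a median is above the upper quartile of the others, and in the middle 2 it is within the quartiles.

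By its median, Thsd7a had more fragments per peak than the rest of the list, and a lower fold. Its peaks had a median of 36 RIP fragments (quartiles 26 and 50), against 29 (20 and 45) for the other 9226 peaks. The median input background was 6.88 (4.84 and 14.0), against 5.00 (2.42 and 10.0). The median fold was 3.82 (3.05 and 5.86), against 4.41 (3.35 and 5.64). None of the 45 backgrounds was at the lowest value of the list, 1.08, where 466 peaks stood. Peaks were 187 to 470 bp wide with a median of 245 bp, against 228 bp for the others, and together covered 2.76% of the gene body.

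Some annotated features overlap the gene on the other strand, and the libraries are not stated to keep the strand. The long non-coding RNA gene Gm44129 spans 49961 bp inside intron 1, and 6 Thsd7a peaks lay within that span with 0 over its exons. Peak 30 overlapped Gm16123, a processed pseudogene inside intron 1. A ribosomal 5S-type gene copy, n-R5s160, had no peak. Without strand, fragments of Thsd7a and of these genes cannot be told apart.

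Repeated sequence lay under part of the peaks. Bases marked as repeats by RefSeq made up 38.0% of peak sequence, against 30.3% of windows 1 peak width to either side, and 34.1% of the whole gene body. More than 50% of the bases were repeats in 14 peaks and 0% in 8. A search of the mouse chromosomes found another match, at 90% identity or more over at least 50% of the peak, for 8 of the 45: peaks 2, 3, 4, 9, 10, 30, 35 and 43. Peak 9, printed above, is a run of a purine repeat with 34893 such alignments, and peak 30, the second highest fold, had 1354. Overlapping alignments were counted separately, so these are not numbers of distinct copies. Peak 20, the highest fold, had 0 in this search, but 78.0% of its bases were marked as repeats. How the authors placed reads with several matches is not given in the sources used here. Without these 8 peaks the median fold was 3.74 and the share in introns 97.3%, both little changed.

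The peaks differed from their surroundings in base content. On the strand of the gene, G made up 23.2% of peak bases, against 19.0% in the adjacent windows, and A made up 27.0%, against 31.5%. C and T differed by less than 1 percentage point. G was higher in the peak than in its own windows for 33 of 45 peaks, and A was higher for 11. Intron peaks of other protein-coding genes had the same direction, with G at 24.1%, against 20.8% in their windows, and A at 24.9%, against 29.2%, over 6574 peaks. At 2 peaks G and A together made up at least 80% of the bases, as in peak 33 above, and at 1 peak C and T did.

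On the strand of the gene, DRACH, the m6A consensus, was less dense in Thsd7a peaks than beside them. Its narrower form GGACH was denser, and both had intervals that reach or pass 1 in part of the settings. DRACH occurred 207 times in the peaks, at 17.1 per kb, against 20.3 per kb in the windows, a ratio of 0.843 (95% Clopper-Pearson interval over matches 0.713 to 0.994). Without the 8 peaks that have close copies it was 0.869 (0.729 to 1.03). The whole gene body had 20.7 per kb. Of the 45 peaks, 43 held at least 1 match, and peaks 35 and 42 held none. Peak 20, the highest fold, held 3 over its full length, though the part printed above holds none. The ratio in intron peaks of other genes was 0.907 (0.895 to 0.920). The narrower form GGACH, printed in capitals in peak 37, was found 26 times at 2.15 per kb, against 1.41 per kb in the windows, a ratio of 1.53 (0.881 to 2.63). That interval includes 1. Without the 8 peaks that have close copies, a set chosen after seeing the data, the ratio was 1.85 (1.03 to 3.31), and with windows 5 peak widths away it was 1.24 (0.729 to 2.07). In intron peaks of other genes it was 1.10 (1.05 to 1.14), and 20 of the 45 Thsd7a peaks held a GGACH. DRACH read on the opposite strand had a ratio of 1.14 (0.976 to 1.32), and of 1.12 (1.10 to 1.13) in intron peaks of other genes. The libraries are not stated to keep the strand. The intervals count matches as independent, which overlapping and repeated sequence are not, and a match is no methylated site.

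Other genes with many peaks show the same layout in part. Brinp3, a gene of a secreted or membrane-linked neural protein family, held 159 peaks in 407713 bp, or 39.0 per 100 kb, against 10.3 per 100 kb for Thsd7a. Angpt1, for the ligand of the endothelial receptor TIE2, held 37 in 252255 bp, or 14.7 per 100 kb. Nfat5, for a transcription factor of the osmotic stress response, held 32 in 86048 bp, or 37.2 per 100 kb. The share of peaks in introns was 97.8% for Thsd7a, 96.9% for Brinp3, 100% for Angpt1 and 84.4% for Nfat5. In the first 50 kb and beyond it lay 16 and 29 peaks of Thsd7a, 30 and 129 of Brinp3, 11 and 26 of Angpt1, and 24 and 8 of Nfat5. By gene length, the first 50 kb was thus denser than the rest in each of these genes, and not in Thsd7a alone. Among the 138 genes with at least 10 peaks, Thsd7a ranked 63 by peaks per 100 kb, near the median of 9.60. Of the 294 protein-coding genes at least as long, 203 had no peak.

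The median background was lower beyond the first 50 kb than within it in 3 of these 4 genes. Thsd7a had a median background of 13.5 in the first 50 kb and 5.39 beyond, with a Spearman correlation of -0.60 over 45 peaks. Brinp3 had 19.0 and 13.0 with a correlation of -0.50 over 159 peaks, and Angpt1 had 11.3 and 7.11 with -0.58 over 37. In Brinp3 the background did not fall steadily from the start. It was 5.25 at 9.01 kb, and its highest value, 85.0, lay beyond the first 50 kb, at 69.9 kb. Nfat5 had 8.16 and 8.87 with 0.37 over 32 peaks, and only 8 of those lay beyond 50 kb. The fold did not follow 1 pattern: its medians in the first 50 kb and beyond were 3.42 and 4.67 for Thsd7a, 3.38 and 3.69 for Brinp3, 4.45 and 3.87 for Angpt1, and 4.31 and 4.31 for Nfat5. No test of these differences between genes was possible with 1 library a group.

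**Figure D4:**
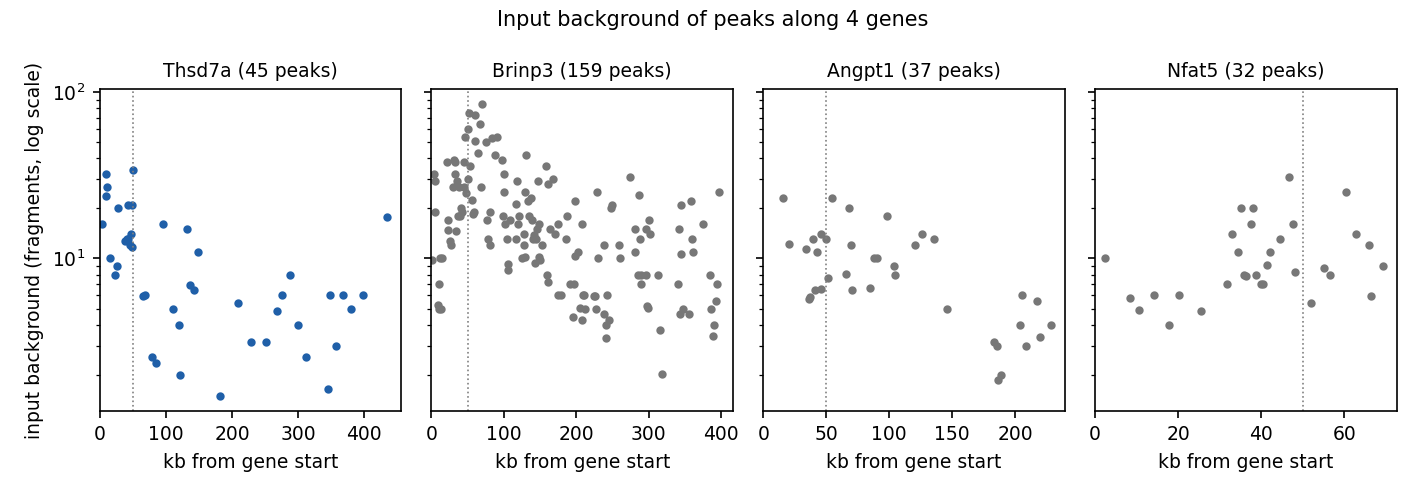
Input background at the summit of each peak (log axis, fragments) by distance from the gene start in kb for Thsd7a, Brinp3, Angpt1 and Nfat5, with a dotted line at 50 kb. Points of Thsd7a and Angpt1 mostly lie lower further from the start. Those of Brinp3 are highest past the line and mostly lie lower far beyond it, and those of Nfat5 do not fall. The x axes differ in length.

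The genes whose peaks most resembled those of Thsd7a included Zfhx4, Tcf12, Zfp148 and Mef2a. Likeness was the distance over 4 standardised measures (peaks per 100 kb, share in introns, median fold, median background) among genes with at least 10 peaks. The nearest was Zfhx4, a zinc finger homeobox factor, with 17 peaks, a median fold of 3.84 and a median background of 7 (distance 0.305). Then came Tcf12, an E protein that pairs with myogenic bHLH factors, with 33 peaks, 4.12 and 6.23 (distance 0.507). Zfp148, a zinc finger factor, had 10 peaks (0.527), and Mef2a, a muscle transcription factor, had 14 (0.527). The distance describes the layout of peaks in these libraries only.

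Most other genes with thrombospondin type 1 repeats had no peak. Of the 61 besides Thsd7a, 11 had at least 1 over the body, 18.0%, near the 15.0% of all protein-coding genes, and 3 were in the authors' gene table. The list's genes are longer, with a median of 56608 bp, against 17403 bp for all. Unc5c, a netrin receptor, had 20 peaks with a median fold of 4.74, all in introns. Adamts6, a secreted metalloprotease, had 18 with a median of 5.19, and the guidance factor Sema5a had 4 with 5.46. Thsd7b, the closest relative of Thsd7a, had 1 peak in 945977 bp, at a fold of 6.03. Thbs1, the matrix protein that gives the repeat its name, had 1 at 1.92, and Spon1, a floor plate matrix protein, had 1 at 4.41. Ccn5, Adamts5, Adamts12, Adamtsl3 and Adamtsl5 had 1 peak each.

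Among genes of other membranous nephropathy antigens, known from human disease, 4 of 12 had a peak, beside 15.0% of all protein-coding genes, and 0 were in the authors' gene table, beside 5.75%. These genes are long, with a median of 232591 bp, against 17403 bp for all. The protocadherin gene Pcdh7 had 15 peaks with a median fold of 5.42, and the heparan sulfate polymerase gene Ext1 had 7 with 2.73. The adhesion molecule gene Ncam1 had 6 with 3.12, and the TGF-beta co-receptor gene Tgfbr3 had 1 with 4.43. All of these peaks lay in introns. Pla2r1, the main antigen of that disease, had none.

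A peak is no measure of expression, so the labelled cell type can be checked only by which marker genes had a peak. Of 15 myotube markers 4 did: the sarcomere genes Ttn with 3 peaks and Neb, Mylpf and Tnnt1 with 1 each. Of 12 endothelial markers 0 did, and of 12 podocyte markers 2 did, the adaptor gene Cd2ap with 7 peaks and Kirrel with 1. These shares stand beside 15.0% of all protein-coding genes. Lists of 12 to 15 genes are too short to set these shares apart from it, and the level of Thsd7a in these myotubes is not known from the files.

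In the authors' deposited table of Gene Ontology (GO) terms, Thsd7a was listed in 22 terms. The table was made from the authors' peak genes, so it describes those genes together. Whether the 44 intron peaks of Thsd7a, which are outside the authors' gene table, counted toward it was not tested. Among these 22, the term of lowest p-value was circulatory system development, with 66 of 717 annotated genes where 44 were expected (FDR 0.0139 from Fisher's exact test, as the authors' deposited table gives it). Vasculature development followed in the authors' deposited table with 47 of 501 where 30.7 were expected (FDR 0.0409). For angiogenesis the authors' deposited table gave 32 of 339 where 20.8 were expected, and an FDR of 0.12. Of the 22 terms in the authors' deposited table, 2 had an FDR under 0.05. Others of the 22 held fewer genes than expected. In the authors' deposited table, integral component of membrane had 169 of 4942 where 304 were expected. Extracellular region had 62 of 1640 there, where 101 were expected.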

How the data were processed

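Per the series' design text, reads of the YTHDF2 RIP and input libraries (150 bp, paired) were aligned with Bowtie (mm10), and MACS called the peaks. Trim Galore and Picard are also named, per the submitters' processing notes. Versions, settings, strand and the handling of reads with several matches are not stated in the sources used. Bowtie does not split reads over introns, so fragments across exon junctions can be lost. Whether this lowered the counts in exons was not tested. No file gives total counts, so the depth is unknown. The labels' library steps are worded for DNA.

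Per the file headers, the authors' peak list holds the RIP pileup (a signal) at each summit, the fold enrichment (a linear ratio) and −log10 of the p-value and q-value. The authors' deposited GO table holds Fisher p-values, their FDR and the expected number of genes, here kept as a score.

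Members and lists were chosen with earlier results of these data known. The input background was computed as (pileup + 1) / fold − 1. Peaks were placed with GENCODE M21 (overlap of at least 1 bp), and sequence came from GRCm38 (RefSeq). A background was taken as whole within 0.01, as for 28 of the 45 Thsd7a peaks. The other backgrounds cannot be read as counts of input fragments at the summit. Close copies were sought with BLAST+ 2.17.0 (word size 40, 90% identity, 50% coverage). DRACH and GGACH were counted with overlaps. Named peaks were those in exons or the authors' gene table, the 10 intron peaks of highest fold, those with most fragments and lowest fold, and those at the gene's ends. Named genes were the 3 comparison genes, neighbours, overlapping genes, the 5 most like, of which 1 is not reported here, and list members with peaks. Intervals cover counting only, and PCR copies are not independent fragments. Functions were tested on simulated data with Python 3.11.15.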

Additional observations from a re-analysis of the deposited data

How the results depend on the processing

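Of 38 alternatives, 22 left the value within its counting interval, or a count within 1.5 times, and 16 did not. The 45 peaks became 20 at a fold enrichment of at least 4 and 16 at or above the list median. With them the peaks per 100 kb were 4.57 and 3.65, the median gap 15.7 and 23.1 kb, the median fold 5.996 and 6.18, the median background 4 and 3.16, and the share in introns 100% under both, since both filters remove peak 45 and the weaker peaks by construction. At a −log10 q of at least 5, with peaks under 1000 bp apart joined, or without peaks that have another close match in the genome (chosen after seeing the data), those of these values that were recomputed stayed within 1.5 times the reported ones. Without the close matches the DRACH ratio was 0.869 (0.729 to 1.03), so its interval came to include 1, and the GGACH ratio was 1.85 (1.03 to 3.31), so its interval no longer did. The DRACH ratio was 1.53 as GGACH and 1.14 on the opposite strand, and the cause was not tested. The 12 thrombospondin repeat genes with a peak, Thsd7a included, became 4 with at least 2 peaks and 4 in the authors' gene table. No paired analysis was possible because there is 1 library a group. At low background a fold rests on a small input value, for example 1.49 at peak 30 and 4.00 at peak 37. The effect of depth was not tested.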

Other observations

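The fall of the input background along Thsd7a was compared with other genes that had at least 5 peaks in the first 50 kb and at least 5 beyond, a comparison chosen after seeing the data. Of these 45 genes, Thsd7a included, 33 had a higher median background in the first 50 kb, and the median ratio of the first 50 kb to the rest was 1.43. Atf7 and Gm28047 held the same peaks, and with these counted once it was 32 of 44 genes with a median ratio of 1.42. Thsd7a, at 2.50, ranked 5 among them. The growth hormone receptor gene Ghr had medians of 20.5 and 9, and the ubiquitin ligase gene Mid1 had 8 and 2.25. The RNA-binding regulator Qk went the other way, with 7.44 and 15.0. The fold was lower in the first 50 kb for 28 of the 45 genes, or 27 of 44 with those peaks counted once. Ghr, Mid1, Qk, Atf7 and Gm28047 were named after their values were seen.

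Among genes with thrombospondin repeats, Unc5c and Adamts6 also met that condition. Adamts6 had a median background of 4.00 in the first 50 kb and 2.19 beyond, and Unc5c had 2.60 and 3.53.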
